A study of Homo sapiens with 12 samples.

Results

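The comparison described here is that of the R157F form of MSX1 with wild-type MSX1 (WT) in HEPM, an established human cell line from embryonic palatal mesenchyme. Cells of both groups were transfected with a plasmid that overexpresses MSX1 and were taken for RNA 6 h later, and the plasmids differ, per the labels, in 1 residue, which is arginine in WT and phenylalanine in R157F. The 6 libraries of the comparison, 3 with WT and 3 with R157F, were picked by their labels from 12 libraries made with 4 plasmids, the other 6 being from cells given the R157S (serine) or R157K (lysine) form. All 4 groups carried overexpressed MSX1 on top of the cells' own gene, and cells with an empty vector or no plasmid were not analysed here, so the WT group is the only baseline. The labels do not say that libraries of a group came from separate cultures, and p-values then measure only the spread between these libraries, which may be technical.

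MSX1 is a homeodomain transcription factor of the cranial mesenchyme, where it acts mostly as a repressor, and its loss gives cleft palate and missing teeth in mice and humans. In the mouse palate it sustains Bmp4 and with it growth of the shelves. PRMT1, named with MSX1 in the study's title, is the main enzyme that puts asymmetric dimethyl marks on arginine. In work on arginine methylation, phenylalanine is often used as a bulky stand-in for the methylated residue and lysine as a charged residue that these enzymes do not modify; the labels do not say why each residue was chosen here.

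Promoter sequence is shown for 4 genes whose groups recur in the results, because each holds a motif for which its group is known. The windows run from 250 bases before to 50 bases after the annotated start and come from RefSeq on GRCh38.p14. Capitals mark the matches found by a search of the window. In EGR1 (chr5:138465229-138465528, plus strand), an immediate early gene, they mark the CArG box bound by serum response factor.
EGR1: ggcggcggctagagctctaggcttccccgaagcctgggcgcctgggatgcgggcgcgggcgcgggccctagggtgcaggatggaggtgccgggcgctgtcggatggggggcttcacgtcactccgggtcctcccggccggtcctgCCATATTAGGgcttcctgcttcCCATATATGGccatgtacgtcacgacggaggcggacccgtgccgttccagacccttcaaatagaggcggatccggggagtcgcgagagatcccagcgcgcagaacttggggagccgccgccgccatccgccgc
In KIF23 (chr15:69414099-69414398, plus strand), a mitotic kinesin, they mark the cell cycle gene homology region (CHR), searched as TTTGAA on either strand.
KIF23: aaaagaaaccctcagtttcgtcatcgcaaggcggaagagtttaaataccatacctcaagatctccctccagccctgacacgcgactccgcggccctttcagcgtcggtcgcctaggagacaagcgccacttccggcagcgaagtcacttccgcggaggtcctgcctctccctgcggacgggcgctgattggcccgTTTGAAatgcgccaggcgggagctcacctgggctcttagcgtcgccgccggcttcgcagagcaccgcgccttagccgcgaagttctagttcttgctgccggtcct
In the replication-dependent histone genes H2AC6 (chr6:26123922-26124221, plus strand) and H2BC12 (chr6:27146809-27147108, minus strand), they mark the TATA box, searched as TATAAA on the strand of the gene.
H2AC6: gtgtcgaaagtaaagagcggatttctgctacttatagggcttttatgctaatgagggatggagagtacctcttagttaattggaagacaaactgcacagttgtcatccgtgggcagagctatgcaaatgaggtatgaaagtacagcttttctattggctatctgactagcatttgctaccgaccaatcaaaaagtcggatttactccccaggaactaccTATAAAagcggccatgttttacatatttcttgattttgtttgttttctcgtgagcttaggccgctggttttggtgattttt
H2BC12: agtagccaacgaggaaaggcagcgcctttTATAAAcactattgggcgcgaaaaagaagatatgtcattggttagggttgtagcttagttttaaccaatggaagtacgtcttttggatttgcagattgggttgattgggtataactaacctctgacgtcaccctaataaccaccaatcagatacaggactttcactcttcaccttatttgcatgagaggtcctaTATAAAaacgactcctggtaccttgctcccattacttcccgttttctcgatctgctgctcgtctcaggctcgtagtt
Of 10683 tested genes with a window, 1.04% held a CArG box, 9.85% a CHR and 3.70% a TATA box, each counted as a sequence match. The EGR1 window held 2 CArG matches, KIF23 1 CHR, H2AC6 1 TATAAA match and H2BC12 2.

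Expression was deposited as TPM, a length-corrected transcript abundance, which give a level relative to the whole library and keep no sequencing depth. Of 63241 genes in the table, 14718 had at least 1 TPM in 3 or more of the 12 libraries and were tested. Changes are differences of log2(TPM + 1), R157F minus WT, which understate the change of low genes, and a gene was called at an adjusted p under 0.05 in limma. On this scale 3596 genes were higher with R157F (24.4% of those tested) and 4975 were lower (33.8%), 8571 in all (58.2%). The median change over all tested genes was -0.08, so a gene list is read against that value. The 3 values of one group lay wholly above or below the 3 of the other for 9762 genes (66.3%).

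The WT libraries stood further apart from each other than the R157F libraries did. Transcripts of the mitochondrial genome took 7.55%, 9.96% and 6.36% of the TPM in WT replicates 1, 2 and 3, against 5.31% to 5.59% with R157F. Messages of cytosolic ribosomal proteins took 5.74%, 4.62% and 6.34% with WT and 7.65% to 8.04% with R157F. WT replicate 2 was thus the far library on both measures, and calls and counts that change without it are given below. Leaving it out kept 81 of 86 counts over the gene lists (43 lists, each direction) within 1.5 times of the values below. Correlation between the change and the GC content of the gene's transcripts, across 14220 genes with an annotated value, was 0.81 (Spearman's rho, over genes that are not independent), and 0.76 without WT replicate 2. When genes were split into 10 equal bins by GC content, in the bin with least GC 11 were higher and 1147 lower, with a median change of -0.84. In the bin with most GC, 1141 were higher and 4 lower, with a median of 0.85. WT libraries differed among themselves along the same axis (rho of -0.75 for replicate 2 minus replicate 3), whereas the 3 pairs of R157F libraries gave rho of -0.24 to 0.09. Every count below is therefore given a second time, with each library's trends on transcript GC content and length subtracted; 1995 genes (14.0% of 14220) were then higher and 2098 (14.8%) lower. Of the genes called at first, 1254 were still called higher and 1524 still called lower, while 49 and 98 were called the opposite way. Leaving out WT replicate 2 from that second fit had more effect, since 21 of the 86 list counts moved by over 1.5 times. Of 170 genes picked by rule and named here, 142 were called the same way with trends removed, and 17 of these lost the call. The part of GC content in any single result was not tested beyond this. Each list count below is to be read against the shares over all genes, also where they are not repeated. These were 24.4% higher and 33.8% lower as deposited, and 14.0% and 14.8% with trends removed.

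**Figure D1:**
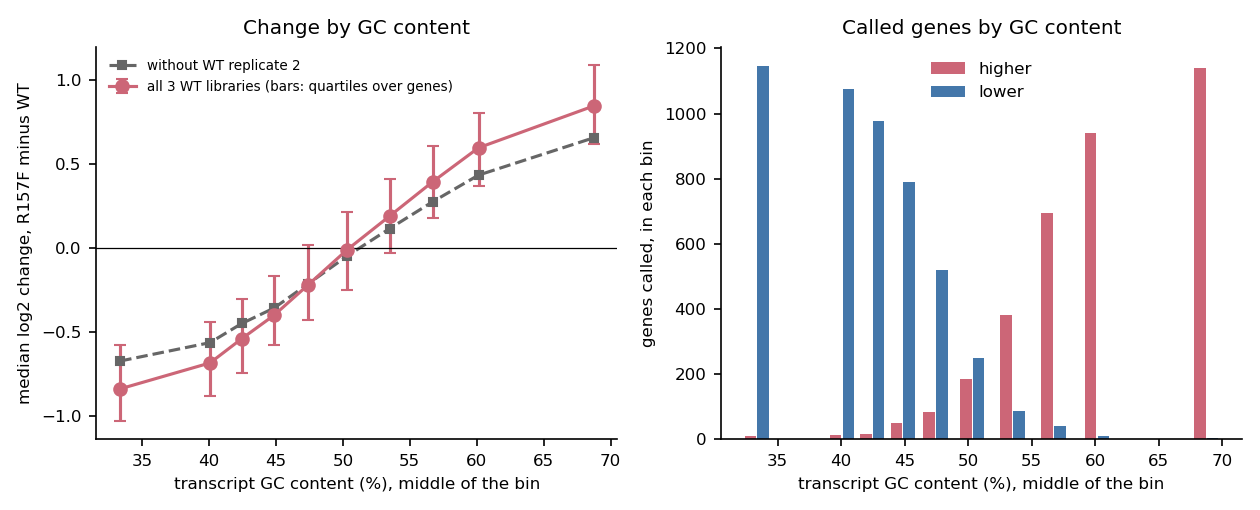
Left, median log2 change (R157F minus WT) of the genes in each of 10 bins of transcript GC content, with quartiles over genes as bars, and the same medians without WT replicate 2 as squares; right, number of genes called higher or lower in each bin. The medians run from -0.84 in the lowest bin to 0.85 in the highest, and called genes pass from nearly all lower to nearly all higher.

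MSX1 itself was read at 342, 224 and 446 TPM with WT and 984, 627 and 1007 TPM with R157F. All 3 R157F libraries lay above all 3 WT libraries, with replicate 2 the lowest in both groups. The mean was 337 ± 111 TPM with WT and 872 ± 213 TPM with R157F (SD, n = 3 each). Its log2 change was 1.39 ± 0.32 (SE; adjusted p = 0.00288), and an exact two-sided permutation test gave p = 0.1, the smallest that 3 against 3 allows. With GC and length trends removed the change was 0.81 (adjusted p = 0.03796). Without WT replicate 2 as well, it was 0.70 (adjusted p = 0.122) and no longer called. Reads from the plasmid and from the cells' own MSX1 gene are counted together in these values, and the level of MSX1 and the residue it carries cannot be told apart in anything that follows.

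PRMT1 was read at 119, 75.7 and 125 TPM with WT and 175, 192 and 178 TPM with R157F. The groups did not overlap, and WT replicate 2 was lowest of all. Its change was 0.80 ± 0.15 (SE; adjusted p = 0.00111), with p = 0.1 in the exact permutation test, and 0.23 (adjusted p = 0.02201) with trends removed. Without WT replicate 2 in that fit it was 0.16 and missed the threshold (adjusted p = 0.0555). Among 13 tested arginine methyltransferases and their partners, of 14 listed, 4 were higher and 6 lower, and 3 and 2 with trends removed (2 and 1 without WT replicate 2 as well). Without R157F replicate 1 the count as deposited was 2 higher. Beside these counts stand 24.4% higher and 33.8% lower over all genes, and 14.0% and 14.8% with trends removed. TDRD3, a reader of methylated arginine, was at 13.8, 13.8 and 10.8 TPM with WT and 8.08, 8.13 and 6.77 TPM with R157F. Its change of -0.67 (adjusted p = 0.00143) shrank to -0.07 (adjusted p = 0.627) with trends removed. The list as a whole had a median of -0.13 as deposited and -0.01 with trends removed, close to that of all tested genes.

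**Figure D2:**
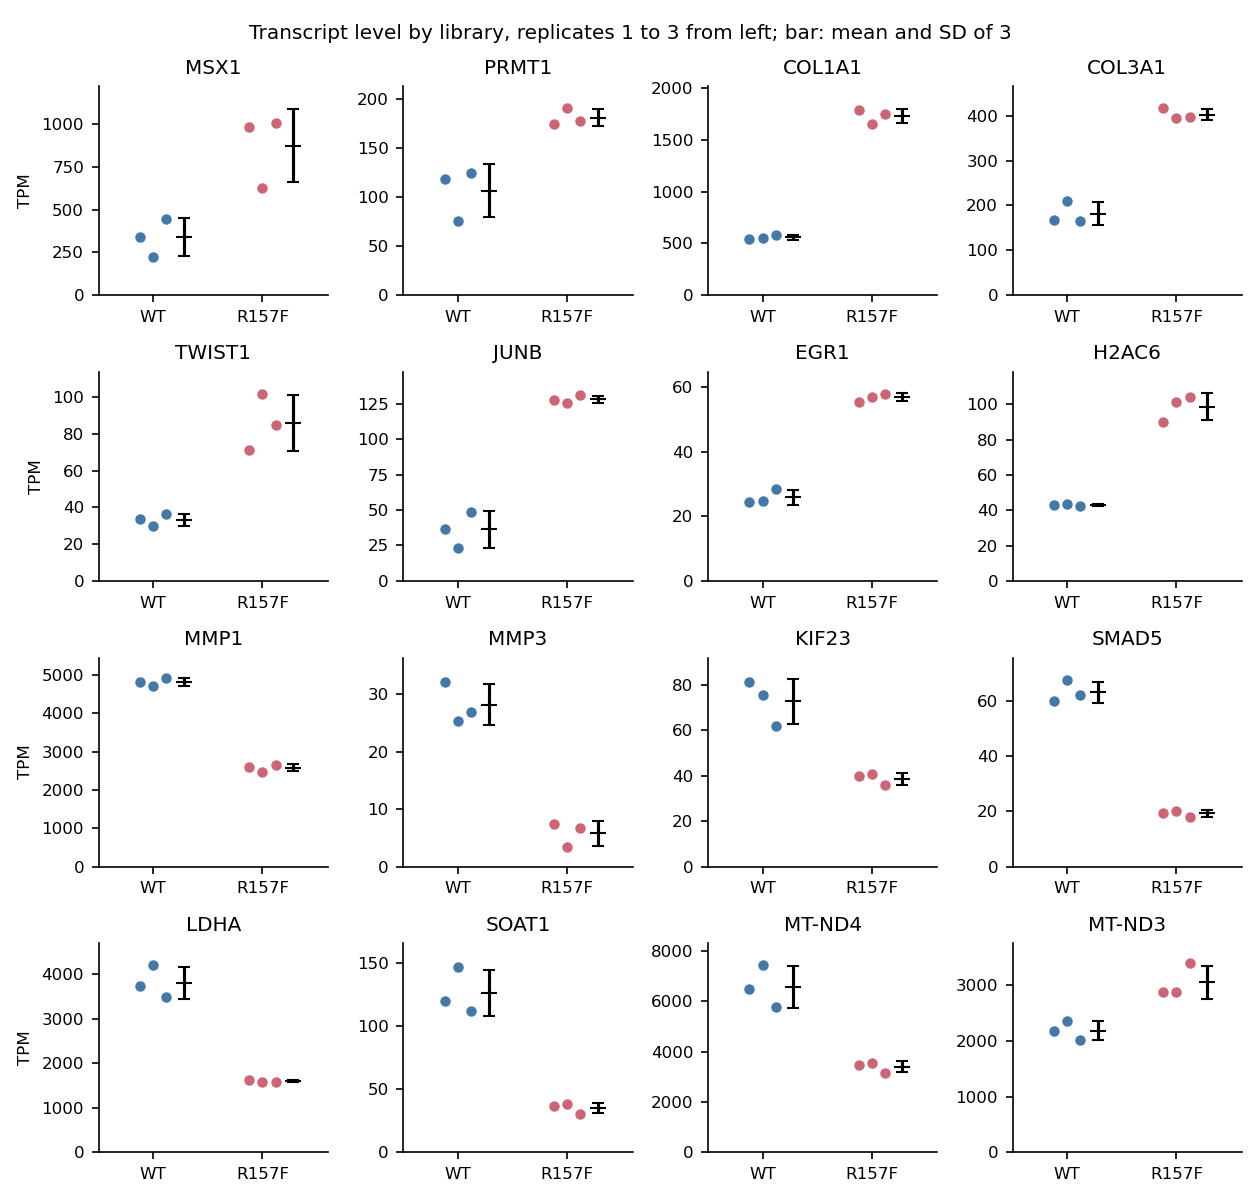
TPM of 16 genes in each of the 3 WT and 3 R157F libraries (points, replicates 1 to 3 from left) with the mean and SD of each group; each panel has its own linear axis from 0. The groups do not overlap in any panel, and WT replicate 2 is the lowest library for MSX1, PRMT1 and JUNB.

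Fibrillar collagen genes were higher with R157F. Of the 26 of 27 listed genes for these collagens and their processing that passed the filter, 17 were higher and 3 lower, and 18 and 2 with trends removed; the list's median change was 0.62 as deposited and 0.41 with trends removed. COL1A1, the alpha 1 chain of type I collagen, was at 540.0, 553 and 582 TPM with WT and 1792, 1651 and 1744 TPM with R157F. The groups were far apart, since the lowest R157F library was 2.84-fold the highest WT library. Its change was 1.63 ± 0.11 (SE; adjusted p = 2.52e-05), and 1.01 (adjusted p = 0.000207) with trends removed. COL3A1, which forms type III collagen, was at 168, 211 and 166 TPM with WT and 417, 394 and 397 TPM with R157F, a change of 1.15 ± 0.11 (SE; adjusted p = 6.65e-05) that was hardly altered by removing the trends, at 1.10 (adjusted p = 0.000105). COL5A1, a chain of the type V collagen that nucleates fibrils, was at 61.6, 45.4 and 68.9 TPM with WT and 174, 156.8 and 172 TPM with R157F. Again no libraries overlapped, and the change was 1.52 (adjusted p = 0.000132). SERPINH1, the collagen chaperone HSP47, changed by 1.20 (adjusted p = 0.000197), and by 0.73 (adjusted p = 8.88e-05) with trends removed. COL1A2, the partner chain of COL1A1, had a smaller change of 0.51 (adjusted p = 0.000708). PLOD2, a lysyl hydroxylase for collagen cross-links, was among the lower members, at 318, 429.7 and 262 TPM with WT and 179, 139 and 167 TPM with R157F. Its change was -1.03 (adjusted p = 0.000768), but -0.24 (adjusted p = 0.103) with trends removed, which was not called.

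Elastic fibre and adhesive matrix genes moved likewise, with 15 of 27 tested members (of 28 listed) higher and 5 lower, and 16 and 2 with trends removed (15 and 1 without WT replicate 2 as well). ELN, the elastin precursor, was at 34.5, 23.5 and 34.1 TPM with WT and 79.6, 80.3 and 93.1 TPM with R157F. There was no overlap, the lowest R157F library was 2.304-fold the highest WT library, and the change was 1.45 (adjusted p = 0.000114). MFAP4, an elastic fibre protein, changed by 1.003 (adjusted p = 8.65e-05) and TNXB, a tenascin, by 1.48 (adjusted p = 0.000313). THBS1, the adhesive glycoprotein thrombospondin 1 and a TGF-beta target, was at 424, 423 and 409 TPM with WT and 608, 575 and 579.8 TPM with R157F. WT libraries of THBS1 lay within a narrow band below all R157F libraries, and its change grew from 0.49 (adjusted p = 0.000797) to 0.82 (adjusted p = 3.70e-05) with trends removed. Lower members were CD44, the hyaluronan receptor, at -0.65 (adjusted p = 0.000304), and HAS2, a hyaluronan synthase, at -0.97 (adjusted p = 0.000231). CD44 was still called with trends removed at -0.27 (adjusted p = 0.0138), and HAS2 was not, at -0.15 (adjusted p = 0.284).

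For the basement membrane, 9 of 20 genes were higher and 1 lower, and 6 and 2 with trends removed. The count of lower genes as deposited was 2 without WT replicate 2 or R157F replicate 2 and 0 without R157F replicate 3; with trends removed and without WT replicate 2 it was 1. COL4A2, a chain of type IV collagen, was at 174, 141 and 193 TPM with WT and 380.1, 359 and 388 TPM with R157F, a change of 1.16 (adjusted p = 0.000216). HSPG2 (perlecan) changed by 1.25 (adjusted p = 0.000321), AGRN (agrin) by 1.27 (adjusted p = 0.000566) and COL18A1, whose C-terminus gives endostatin, by 1.45 (adjusted p = 0.000751). All 4 were still called with trends removed, with changes of 0.34 to 0.56 there.

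Matrix proteases were called in shares near those of all genes. Of 21 tested proteases and inhibitors, 7 were higher and 7 lower, beside 24.4% and 33.8% over all genes. With trends removed the counts were 3 and 4, beside 14.0% and 14.8%, and without WT replicate 2 as well they were 1 and 4. MMP1, the interstitial collagenase and an abundant message in these cells, was at 4809, 4719 and 4910.0 TPM with WT and 2595, 2472 and 2651 TPM with R157F. Libraries of a group were close to each other, the highest R157F library held 56.2% of the lowest WT library, and the change was -0.90 ± 0.08 (SE; adjusted p = 4.69e-05). MMP3, stromelysin 1, was at 32.1, 25.4 and 26.96 TPM with WT and 7.45, 3.38 and 6.69 TPM with R157F. It had the strongest fall of the list at -2.14 ± 0.27 (SE; adjusted p = 0.000197), and -1.78 (adjusted p = 0.00108) with trends removed. On the other side, MMP2, a gelatinase, changed by 0.56 (adjusted p = 0.00603), MMP14, the membrane-bound activator of MMP2, by 0.75 (adjusted p = 0.00346) and MMP19 by 0.63 (adjusted p = 0.00253). These 3 were called with trends removed, at 0.23 (adjusted p = 0.0283), 0.28 (adjusted p = 0.0321) and 0.45 (adjusted p = 0.00855). Without WT replicate 2 as well, MMP2 at 0.21 (adjusted p = 0.0685) and MMP14 at 0.22 (adjusted p = 0.102) were no longer called.

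Transcription factors of the palate were more often higher than lower. Of the 35 of 45 listed factors that passed the filter, 17 were higher and 3 lower, and 12 and 1 with trends removed (8 and 0 without WT replicate 2 as well). TWIST1, a basic helix-loop-helix factor of cranial mesenchyme, was at 33.97, 29.7 and 36.2 TPM with WT and 71.5, 102 and 84.9 TPM with R157F. R157F replicate 2 was the highest, the lowest R157F library was 1.97-fold the highest WT library, and the change was 1.33 ± 0.16 (SE; adjusted p = 0.0001597). TWIST2, its close relative, changed by 1.15 (adjusted p = 0.000338), and FOXD1, a forkhead factor, by 1.22 (adjusted p = 0.000365). Both held with trends removed, at 0.70 (adjusted p = 0.000609) and 0.35 (adjusted p = 0.00763). BARX1, a homeobox factor of the first arch, changed by 1.11 (adjusted p = 0.000563), but by 0.02 (adjusted p = 0.925) with trends removed. PRRX1, the abundant homeobox factor of limb and face mesenchyme, was at 878, 941 and 803 TPM with WT and 594, 589.6 and 499 TPM with R157F. It was lower as deposited, at -0.64 (adjusted p = 0.000338), and at -0.003 (adjusted p = 0.981) with trends removed. ZEB1, a repressor of epithelial genes, behaved in the same way, with -0.84 (adjusted p = 0.000304) and -0.15 (adjusted p = 0.0863).

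Genes that are linked to MSX1 in development were seldom called lower, and as deposited their share called higher was near that of all genes. Of the 16 of 21 listed genes that passed the filter, 4 were higher and 1 lower, beside 24.4% and 33.8% over all genes. With trends removed 6 were higher and 1 lower, beside 14.0% and 14.8%, and without R157F replicate 2 the count of lower genes as deposited was 2. DKK1, a secreted WNT antagonist, was at 299, 265 and 255 TPM with WT and 142, 122 and 145 TPM with R157F. With R157F all libraries were lower, and the highest R157F library held 56.7% of the lowest WT library, a change of -0.999 ± 0.10 (SE; adjusted p = 9.57e-05), and -0.57 (adjusted p = 0.00124) with trends removed. PTCH1, the hedgehog receptor and target, was at 2.8, 4.12 and 1.72 TPM with WT and 5.28, 6.77 and 7.39 TPM with R157F, a change of 0.98 (adjusted p = 0.00621). DLX2, a homeobox factor of the arches, changed by 0.89 (adjusted p = 0.00104). DLX2 was called with trends removed, at 0.32 (adjusted p = 0.0499), but not when WT replicate 2 was left out as well, at 0.37 (adjusted p = 0.0583), nor with the replicate number as a block (adjusted p = 0.0687). 3 further members outside the rule for named genes were added after their values were seen, since they are the best known partners of MSX1. BMP4, which MSX1 sustains in the mouse palate, was at 5.06, 4.11 and 3.38 TPM with WT and 4.12, 5.34 and 4.57 TPM with R157F, and its change of 0.14 (adjusted p = 0.477) was not called. PAX9, which partners MSX1 in tooth and palate, was at 66.4, 76.4 and 60.9 TPM with WT and 72.2, 98.99 and 71.3 TPM with R157F, which gave 0.24 (adjusted p = 0.176) as deposited but 0.78 (adjusted p = 0.00158) with trends removed. MSX2, the paralogue, gave 0.31 (adjusted p = 0.158) and 0.51 (adjusted p = 0.0392). Its level was low, at 4.08 ± 0.291 TPM with WT and 5.32 ± 0.823 TPM with R157F (SD, n = 3 each).

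In the BMP pathway, 6 of 22 tested genes were higher and 8 lower, shares near the 24.4% and 33.8% over all genes. With trends removed 6 were higher and 2 lower, beside 14.0% and 14.8%. GDF5, a BMP-family ligand of joints, was at 15.4, 9.97 and 16.9 TPM with WT and 41.9, 37.9 and 42.3 TPM with R157F, with no overlap and a change of 1.49 ± 0.18 (SE; adjusted p = 0.000189). NOG, the antagonist noggin, changed by 0.96 (adjusted p = 0.000281), and by 0.40 (adjusted p = 0.0471) with trends removed, a call lost with the replicate block in that fit (adjusted p = 0.0675). SMAD5, one of the receptor-activated SMADs of the pathway, was at 60.1, 67.5 and 62.1 TPM with WT and 19.5, 20.3 and 18.02 TPM with R157F. Both groups were tight, and the highest R157F library held 33.8% of the lowest WT library, a change of -1.66 ± 0.12 (SE; adjusted p = 2.52e-05), and -0.87 (adjusted p = 0.001099) with trends removed.

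WNT pathway genes were called higher in 9 of 29 cases and lower in 7, and in 7 and 2 with trends removed (6 and 1 without WT replicate 2 as well). For all lists of this paragraph, the shares over all genes were 24.4% higher and 33.8% lower, and 14.0% and 14.8% with trends removed. LRP5, a WNT co-receptor, was at 17.2, 10.4 and 22.3 TPM with WT and 41.4, 50.6 and 40.97 TPM with R157F, a change of 1.41 (adjusted p = 0.000707). FZD7, a frizzled receptor, changed by 0.64 (adjusted p = 0.000557) with WT libraries in a narrow range. In the hedgehog list 4 of 11 genes were higher and none lower, and 1 and 0 with trends removed; that 1 gene was PTCH1. As deposited the hedgehog count was 2 higher without WT replicate 2, R157F replicate 1 or R157F replicate 2. In the TGF-beta list 10 of 24 were higher and 7 lower, and 6 and 1 with trends removed (7 and 2 without WT replicate 2 as well). TGFBI, a matrix protein that TGF-beta induces, was at 186, 147 and 170.3 TPM with WT and 248, 253 and 239 TPM with R157F, a change of 0.56 (adjusted p = 0.000571) and of 0.39 (adjusted p = 0.00135) with trends removed. TGFB1, the ligand, changed by 0.80 (adjusted p = 0.00316) but by 0.07 (adjusted p = 0.607) with trends removed. The Notch list had 5 higher and 4 lower of 16, and 1 and 3 with trends removed. HES4, a target gene, changed by 1.71 (adjusted p = 0.000304); RBPJ, the DNA-binding factor of the pathway, by -1.15 (adjusted p = 0.000177); and NUMB, an inhibitor of the receptor, by -0.55 (adjusted p = 0.0003199). RBPJ and NUMB were still called with trends removed and HES4 was not.

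Genes of FGF and ERK signalling were more often lower than higher. Of 27 tested genes, 4 were higher and 16 lower, and 5 and 13 with trends removed, against 33.8% and 14.8% lower over all genes. The lower count with trends removed rested in part on WT replicate 2, since without it 3 were higher and 7 lower. FGF2, a secreted growth factor, was at 173, 267 and 131 TPM with WT and 87.3, 72.7 and 82.2 TPM with R157F. WT replicate 2 was the highest library, but all 3 WT libraries were above all R157F libraries, and the change was -1.17 (adjusted p = 0.000886). SPRED1, an inhibitor of the pathway, changed by -1.04 (adjusted p = 0.000647) and FLRT3, a membrane partner of FGF receptors, by -1.15 (adjusted p = 0.000293). Each of these was called with trends removed, at -0.36 (adjusted p = 0.0251), -0.33 (adjusted p = 0.0229) and -0.42 (adjusted p = 0.0325), and none of the 3 without WT replicate 2 as well, at -0.25 (adjusted p = 0.0879), -0.23 (adjusted p = 0.0723) and -0.39 (adjusted p = 0.0923). SPRY1, a feedback inhibitor that ERK induces, went the other way at 33, 34.9 and 33.4 TPM with WT and 56.9, 66.5 and 57.8 TPM with R157F. Its change was 0.82 (adjusted p = 0.00142), and 1.21 (adjusted p = 0.000506) with trends removed. MAP2K2, the kinase MEK2, was higher too, at 1.12 (adjusted p = 0.0008904), and at 0.24 (adjusted p = 0.0327) with trends removed, but at 0.15 (adjusted p = 0.0887) without WT replicate 2 as well.

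Immediate early genes, which answer serum and growth factors within minutes, were higher in 13 of 25 tested cases and lower in 4, and in 9 and 1 with trends removed (7 and 0 without WT replicate 2 as well). JUNB, an AP-1 subunit, was at 36.95, 23.2 and 48.8 TPM with WT and 128, 126 and 131 TPM with R157F. R157F libraries lay within a narrow range, the lowest R157F library was 2.58-fold the highest WT library, and the change was 1.85 ± 0.21 (SE; adjusted p = 0.000155). EGR1, the zinc finger factor whose promoter is shown above, was at 24.4, 24.6 and 28.4 TPM with WT and 55.4, 57.1 and 57.9 TPM with R157F, a change of 1.11 ± 0.14 (SE; adjusted p = 0.000206) and of 0.85 (adjusted p = 0.000189) with trends removed. IER5 changed by 1.02 (adjusted p = 0.000211) and IER2 by 1.16 (adjusted p = 0.000307). NR4A3, an orphan nuclear receptor, was lower at -0.53 (adjusted p = 0.00206), and at -0.26 (adjusted p = 0.0316) with trends removed, a call lost without WT replicate 2 (-0.19 (adjusted p = 0.107)). CArG boxes were found in 2 of 18 windows of this list (11.1%).

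Genes of G2, mitosis and the spindle were mostly lower. Of 52 tested members, 4 were higher and 37 lower, with a median change of -0.65, and 1 was higher and 21 lower with trends removed, with a median of -0.26. KIF23, a kinesin of the central spindle, was at 81.1, 75.4 and 61.96 TPM with WT and 39.7, 40.9 and 35.8 TPM with R157F. Every R157F library was below every WT library, a change of -0.88 ± 0.11 (SE; adjusted p = 0.000206). TPX2, which activates Aurora A on the spindle, was at 135, 134 and 134 TPM with WT and 95.03, 87.4 and 87.3 TPM with R157F, with WT libraries almost equal and a change of -0.58 (adjusted p = 0.00024). AURKA, Aurora A itself, changed by -0.66 (adjusted p = 0.000286) and DLGAP5, a spindle protein, by -1.06 (adjusted p = 0.000293). All 4 were called with trends removed, at -0.32 (adjusted p = 0.0159), -0.27 (adjusted p = 0.00582), -0.40 (adjusted p = 0.00371) and -0.31 (adjusted p = 0.0443), and DLGAP5 missed the threshold with the replicate block in that fit (adjusted p = 0.0521). The count of higher members as deposited was 2 without WT replicate 2 or R157F replicate 3. Higher members were AURKB at 0.53 (adjusted p = 0.00942) and the phosphatase CDC25B at 0.67 (adjusted p = 0.00632), and neither was called with trends removed. The CHR was found in 32 of 44 windows of the list (72.7%), and CCAAT on either strand in 31 (70.5%, against 36.8% of all windows). Among all called genes with a window, the CHR was in 12.8% of those lower and 6.42% of those higher, and in 10.0% and 9.57% with trends removed.

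For G1/S and DNA replication, 14 of 48 genes were higher and 20 lower, beside 24.4% and 33.8% over all genes. With trends removed, 7 were higher and 6 lower, shares close to the 14.0% and 14.8% over all genes, and without WT replicate 2 as well 4 were higher and 3 lower. TK1, thymidine kinase, changed by 1.03 (adjusted p = 0.000606) and POLD1, the catalytic subunit of DNA polymerase delta, by 1.26 (adjusted p = 0.00124). RRM1, the large subunit of ribonucleotide reductase, changed by -0.98 (adjusted p = 0.0003804) and RB1, the retinoblastoma protein, by -1.04 (adjusted p = 0.000348). These 4 were called the same way with trends removed, but TK1 at 0.25 (adjusted p = 0.113) and RB1 at -0.22 (adjusted p = 0.0714) lost the call without WT replicate 2.

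Histone genes were higher. Of the 18 of 21 listed replication-dependent and linker histone genes that passed the filter, 12 were higher and 1 lower, with a median of 0.77; 17 had a GC value, and of these 8 were higher and 1 lower with trends removed. H2AC6 was at 42.8, 43.7 and 42.6 TPM with WT and 90.1, 101 and 104 TPM with R157F. WT libraries were almost equal, the lowest R157F library was 2.06-fold the highest WT library, and the change was 1.18 ± 0.15 (SE; adjusted p = 0.000197). H2AC6 transcripts are low in GC (42.0%), and its change with trends removed was larger, at 1.69 (adjusted p = 0.00012). H2BC12 was at 47.3, 34.8 and 67.3 TPM with WT and 135, 131 and 155 TPM with R157F, a change of 1.52 (adjusted p = 0.000177). H2AX, the variant phosphorylated at DNA breaks, changed by 1.41 (adjusted p = 0.000638), and H1-10, a linker histone, by 1.17 (adjusted p = 0.000662), though by 0.14 (adjusted p = 0.218) with trends removed. H2AZ2, counted in this list though it is a variant made outside S phase and not replication-dependent, was the lower member at -0.54 (adjusted p = 0.000805). TATA boxes were found in 11 of 16 histone windows (68.8%). Messages of replication-dependent histones mostly lack a poly(A) tail, so that selection on poly(A) reads only part of them, and near-identical copies share reads, which leaves single histone values uncertain.

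Messages of the cytosolic ribosome were higher in 48 of 79 cases and lower in 6, and in 50 and 3 with trends removed. Without R157F replicate 2 the lower count as deposited was 3. RPS29 was at 715, 468 and 949 TPM with WT and 2148, 1990.0 and 2399 TPM with R157F. The groups did not overlap, the lowest R157F library was 2.097-fold the highest WT library, and the change was 1.67 ± 0.21 (SE; adjusted p = 0.000195) and 1.51 (adjusted p = 0.000319) with trends removed. RPS21 changed by 1.48 (adjusted p = 0.0001503) and RPS15 by 1.64 (adjusted p = 0.000312). RPL5, a binder of MDM2 when not assembled, was lower at -0.40 (adjusted p = 0.00163), as was RPL22 at -0.83 (adjusted p = 0.000442). RPL5 was at -0.18 (adjusted p = 0.0212) with trends removed, and RPL22, at -0.30 (adjusted p = 0.0547), was no longer called. Many ribosomal protein genes have processed copies elsewhere in the genome, and how such reads were assigned is not given in the sources used here. For mitochondrial ribosomal proteins, 28 of 73 were higher and 25 lower, beside 24.4% and 33.8% over all genes. With trends removed 16 were higher and 11 lower (8 and 8 without WT replicate 2 as well), beside 14.0% and 14.8%. MRPL53 changed by 1.32 (adjusted p = 0.000444) and MRPL23 by 1.24 (adjusted p = 0.0003803), MRPL30 by -1.32 (adjusted p = 0.000192) and MRPL15 by -0.70 (adjusted p = 0.000234). MRPL23, called at 0.27 (adjusted p = 0.0465) with trends removed, was at 0.22 (adjusted p = 0.141) without WT replicate 2 as well.

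Nuclear-encoded subunits of the respiratory chain were higher in 40 of 72 cases and lower in 11, and in 35 and 5 with trends removed (32 and 2 without WT replicate 2 as well). NDUFA13, a subunit of complex I, was at 75.3, 40.3 and 87.6 TPM with WT and 191, 187 and 199 TPM with R157F, a change of 1.56 (adjusted p = 0.000234). NDUFC2, another one, changed by 1.03 (adjusted p = 0.000109), and by 1.38 (adjusted p = 5.27e-05) with trends removed. ATP5PB, a stalk subunit of the ATP synthase, went against the list at 283, 312 and 275 TPM with WT and 93.4, 99.5 and 79.8 TPM with R157F. It was low in every R157F library, the highest R157F library held 36.2% of the lowest WT library, and the change was -1.67 ± 0.14 (SE; adjusted p = 3.52e-05) and -1.16 (adjusted p = 0.000225) with trends removed.

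Transcripts of the mitochondrial genome were lower, with 12 of 15 called lower and 1 higher, and 5 and 1 with trends removed (7 and 2 without WT replicate 2 as well). MT-ND4, a complex I subunit, was at 6494, 7450.4 and 5793 TPM with WT and 3479.8, 3559 and 3149 TPM with R157F. The groups were well apart, and the change was -0.95 ± 0.10 (SE; adjusted p = 0.000114). MT-ND5 changed by -0.91 (adjusted p = 0.000217), MT-ND2 by -0.90 (adjusted p = 0.000262) and MT-ATP6, of the ATP synthase, by -0.79 (adjusted p = 0.000204). MT-ND3 was the exception at 2178, 2356 and 2022 TPM with WT and 2875, 2882 and 3396 TPM with R157F. It was higher in all R157F libraries, at 0.48 (adjusted p = 0.00262), and 1.07 (adjusted p = 5.78e-05) with trends removed. MT-ATP8, added after its values were seen because WT replicate 2 stands out in it, was at 11555, 25397 and 9956 TPM with WT and 11678, 11757 and 14679 TPM with R157F. That library was far above the other WT libraries, the groups overlapped, and the change of -0.18 (adjusted p = 0.578) was not called. The genes for MT-ATP8 and MT-ATP6 overlap, so reads between them can be split either way.

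Translation factors were lower in 21 of 40 cases and higher in 12, but 10 were higher and 7 lower with trends removed. BZW1, a regulator of start codon choice, was at 850.2, 964 and 862 TPM with WT and 421, 397 and 395 TPM with R157F. R157F libraries were low throughout, the highest R157F library held 49.5% of the lowest WT library, and the change was -1.14 ± 0.10 (SE; adjusted p = 3.52e-05) and -0.76 (adjusted p = 3.70e-05) with trends removed. EIF1AX changed by -1.42 (adjusted p = 0.000167) and EIF4G2, which supports initiation without the cap, by -0.79 (adjusted p = 0.000113); EEF2, the elongation factor, changed by 0.78 (adjusted p = 0.000351) and EIF3K by 0.89 (adjusted p = 0.0008503). Splicing factors were lower in 15 of 38 cases and higher in 6, but 14 were higher and 6 lower with trends removed. SF3B1, of the branch-point complex, changed by -0.98 (adjusted p = 0.000507), U2AF2, which reads the polypyrimidine tract, by 1.06 (adjusted p = 0.000889) and HNRNPA0 by 0.69 (adjusted p = 0.000432). SF3B1 was at -0.36 (adjusted p = 0.0177) with trends removed and at -0.30 (adjusted p = 0.0642), not called, without WT replicate 2 as well. For both lists lower calls thus outnumbered higher ones as deposited, and the reverse held with trends removed. Shares over all genes were 24.4% higher and 33.8% lower, then 14.0% and 14.8%. With trends removed the lower share of both lists was near that of all genes, and the higher share was above it. Among proteasome subunits, 11 of 32 were higher and 15 lower, beside 24.4% and 33.8% over all genes. With trends removed 8 were higher and 7 lower, beside 14.0% and 14.8%. PSMB10, an immunoproteasome subunit, changed by 1.48 (adjusted p = 0.000236) and PSMD1 by -0.78 (adjusted p = 0.000238).

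Heat shock genes and chaperones were more often lower, in 14 of 29 cases against 7 higher, and in 10 against 7 with trends removed. Shares over all genes were 33.8% lower and 24.4% higher, and 14.8% and 14.0% with trends removed, so the higher share as deposited was near that of all genes. Without R157F replicate 1 the higher count as deposited was 4. HSPB1, the small heat shock protein HSP27, was at 125, 50.6 and 151 TPM with WT and 315, 379.7 and 339.8 TPM with R157F. WT replicate 2 was lowest, the lowest R157F library was 2.09-fold the highest WT library, and the change was 1.79 ± 0.30 (SE; adjusted p = 0.000575). HSPA1A, the inducible HSP70, changed by 0.97 (adjusted p = 0.00125). Both were called with trends removed, at 0.91 (adjusted p = 0.00319) and 0.42 (adjusted p = 0.00601); HSPA1A has a near-identical neighbour gene, and its reads may be split between them. HSPH1, a co-chaperone of HSP70, was at 194, 228 and 184 TPM with WT and 94.1, 97.2 and 85.8 TPM with R157F, a change of -1.11 (adjusted p = 5.66e-05). HSPD1, the mitochondrial chaperonin, changed by -0.85 (adjusted p = 0.000205) and CCT2, of the cytosolic chaperonin, by -0.81 (adjusted p = 0.000236). The unfolded protein response list had 10 of 30 higher and 12 lower, beside 24.4% and 33.8% over all genes. With trends removed 7 were higher and 4 lower (5 and 0 without WT replicate 2 as well, and 2 lower with the replicate block), beside 14.0% and 14.8%. ATF6, the membrane-held sensor of this response, changed by -0.66 (adjusted p = 0.000317) but by -0.06 (adjusted p = 0.566) with trends removed, and CRELD2 by 0.98 (adjusted p = 0.000396).

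Cholesterol genes were lower with R157F. Of the 30 of 32 listed genes of sterol synthesis and uptake that passed the filter, 7 were higher and 16 lower, and 1 was higher and 15 lower with trends removed. SOAT1, which esterifies cholesterol for storage, was at 119, 147 and 112 TPM with WT and 36.7, 38.2 and 30.4 TPM with R157F. No other member was lower by as much, the highest R157F library held 34.2% of the lowest WT library, and the change was -1.81 ± 0.12 (SE; adjusted p = 2.52e-05) and -1.12 (adjusted p = 5.27e-05) with trends removed. IDI1 changed by -1.09 (adjusted p = 0.000238) and ACAT2, the first step of the pathway, by -0.68 (adjusted p = 0.000265). All 3 held with trends removed. MVD, a mevalonate enzyme, was higher at 1.04 (adjusted p = 0.00102), though 0.16 (adjusted p = 0.223) with trends removed was not called.

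In the list of glycolysis and hypoxia, 7 of 32 genes were higher and 8 lower, beside 24.4% and 33.8% over all genes. With trends removed 3 were higher and 11 lower (1 and 10 without WT replicate 2 as well), beside 14.0% and 14.8%. LDHA, lactate dehydrogenase A, was at 3721, 4196 and 3476 TPM with WT and 1619.7, 1582 and 1584 TPM with R157F. R157F libraries differed little among themselves, the highest R157F library held 46.6% of the lowest WT library, and the change was -1.25 ± 0.10 (SE; adjusted p = 2.80e-05) and -0.81 (adjusted p = 8.51e-05) with trends removed. PDK1, the kinase that shuts off pyruvate dehydrogenase and a target of hypoxia-inducible factor, was at 39.9, 51.2 and 33.8 TPM with WT and 11.6, 11.2 and 11.9 TPM with R157F, a change of -1.74 ± 0.14 (SE; adjusted p = 2.80e-05). HIF1A, that factor itself, changed by -1.20 (adjusted p = 0.000192). PFKL, the liver form of phosphofructokinase, changed by 0.99 (adjusted p = 0.00314) and ADM, a secreted peptide that hypoxia induces, by 1.06 (adjusted p = 0.000655). PFKL was not called with trends removed, at 0.26 (adjusted p = 0.0651), and ADM was, at 0.55 (adjusted p = 0.00457).

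Antioxidant genes were higher in 16 of 39 cases and lower in 8, beside 24.4% and 33.8% over all genes. With trends removed 11 of 38 were higher and 5 lower (11 and 3 without WT replicate 2 as well), beside 14.0% and 14.8%. SOD3, the extracellular superoxide dismutase, was at 9.08, 4.46 and 10.7 TPM with WT and 25.3, 42.97 and 29.5 TPM with R157F. R157F replicate 2 was the highest, the lowest R157F library was 2.36-fold the highest WT library, and the change was 1.92 (adjusted p = 0.000271). SELENOM, a selenoprotein of the endoplasmic reticulum, changed by 1.55 (adjusted p = 0.000171) and GPX4, which reduces lipid peroxides, by 0.99 (adjusted p = 0.000114). GCLM, the modifier subunit of the enzyme that limits glutathione synthesis, changed by -1.39 (adjusted p = 0.0002201). GPX4 was not called with trends removed, and the other 3 were.

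Interferon-stimulated genes were called in both directions, 20 of 51 higher and 23 lower, and 18 and 11 with trends removed. For this list and the NF-kB list below, shares over all genes were 24.4% higher and 33.8% lower, and 14.0% and 14.8% with trends removed. IFI6, a small membrane protein, was at 2033, 1607 and 2283 TPM with WT and 3655, 3993 and 4004 TPM with R157F, a change of 0.99 (adjusted p = 0.000142). EIF2AK2, the RNA-activated kinase PKR, was at 203, 300.2 and 180.0 TPM with WT and 104, 94.2 and 84.9 TPM with R157F, a change of -1.23 (adjusted p = 0.000222). RIGI, a sensor of foreign RNA, changed by -0.996 (adjusted p = 0.000236) and HERC5, the ligase for ISG15, by -0.85 (adjusted p = 0.000211). All 4 held with trends removed, so this list split in both fits. NF-kB targets and chemokines had 12 of 32 higher and 10 lower, and 11 and 3 with trends removed. CCL5, a chemokine, was at 186, 154 and 208 TPM with WT and 289, 254 and 285 TPM with R157F, a change of 0.60 (adjusted p = 0.00139) and of 0.39 (adjusted p = 0.01097) with trends removed. RELB, an NF-kB subunit, changed by 1.08 (adjusted p = 0.00178), PTGS2, the inducible cyclooxygenase, by -0.93 (adjusted p = 0.000317) and IL1R1, the interleukin 1 receptor, by -0.92 (adjusted p = 0.000304). Of these 3, IL1R1 alone was still called with trends removed, at -0.48 (adjusted p = 0.00327).

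Genes of p53 and apoptosis had 13 of 33 higher and 11 lower, and 5 and 3 with trends removed (3 and 2 without WT replicate 2 as well, and 3 higher with the replicate block). Beside these and the coactivator counts below stand 24.4% higher and 33.8% lower over all genes, and 14.0% and 14.8% with trends removed. MDM2, the ligase that degrades p53, changed by -0.89 (adjusted p = 0.000377) and CCNG1, a p53-induced cyclin, by -1.15 (adjusted p = 0.000173); BAD and BBC3, which promote cell death, changed by 1.41 (adjusted p = 0.00111) and 1.21 (adjusted p = 0.0004295). BBC3 was not called with trends removed, at 0.15 (adjusted p = 0.461). MDM2 and BAD were, at -0.32 (adjusted p = 0.0297) and 0.45 (adjusted p = 0.0443), but not without WT replicate 2 as well, at -0.28 (adjusted p = 0.0925) and 0.28 (adjusted p = 0.1603), and BAD also not with the replicate block (adjusted p = 0.0645). Coactivators and histone lysine enzymes were lower in 23 of 53 cases and higher in 12, and in 13 and 4 with trends removed. Without WT replicate 2 they were 22 lower and 7 higher, and 7 and 3 with trends removed as well. NCOA3, a nuclear receptor coactivator, was at 40.8, 46.9 and 36.1 TPM with WT and 23.7, 22.04 and 22.5 TPM with R157F, a change of -0.83 (adjusted p = 0.000195). KDM3A, a lysine demethylase, changed by -0.83 (adjusted p = 0.000242), KDM4B, another one, by 0.997 (adjusted p = 0.00165) and BRD3, a bromodomain protein, by 0.74 (adjusted p = 0.00211).

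Smooth muscle contractile genes, which fibroblasts also express, were higher in 11 of 15 cases and lower in none, and in 7 and 0 with trends removed. Beside this list and the others of the paragraph stand 24.4% higher and 33.8% lower over all genes, and 14.0% and 14.8% with trends removed. MYL9, the regulatory myosin light chain, was at 95.4, 64.2 and 121 TPM with WT and 213, 214 and 204 TPM with R157F, a change of 1.21 (adjusted p = 0.000315). TPM2, a tropomyosin, changed by 1.05 (adjusted p = 0.0004296) and CNN2, a calponin, by 0.99 (adjusted p = 0.000485), and all 3 held with trends removed. Of 8 tested bone and cartilage genes, of 21 listed, COL1A1 and ALPL, the bone alkaline phosphatase, were higher as deposited and none lower. With trends removed, COL1A1 and SPARC, a collagen-binding matrix protein, were higher, while ALPL at 0.30 (adjusted p = 0.309) was not. Without R157F replicate 2, or with the replicate block, 1 was lower as deposited. Nuclear-retained RNAs were lower in 4 of 7 cases and higher in 1, but in 0 and 1 with trends removed; the 1 was MEG3, at 119, 99.5 and 102 TPM with WT and 176, 147 and 166 TPM with R157F. Host genes of small nucleolar RNAs had 5 of 18 higher and 2 lower, and 4 and 2 with trends removed (4 and 1 without WT replicate 2 as well, and 3 higher as deposited without R157F replicate 2), with SNHG8 at 0.67 (adjusted p = 0.00236) and SNHG16 at -1.19 (adjusted p = 0.000194).

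**Figure D3:**
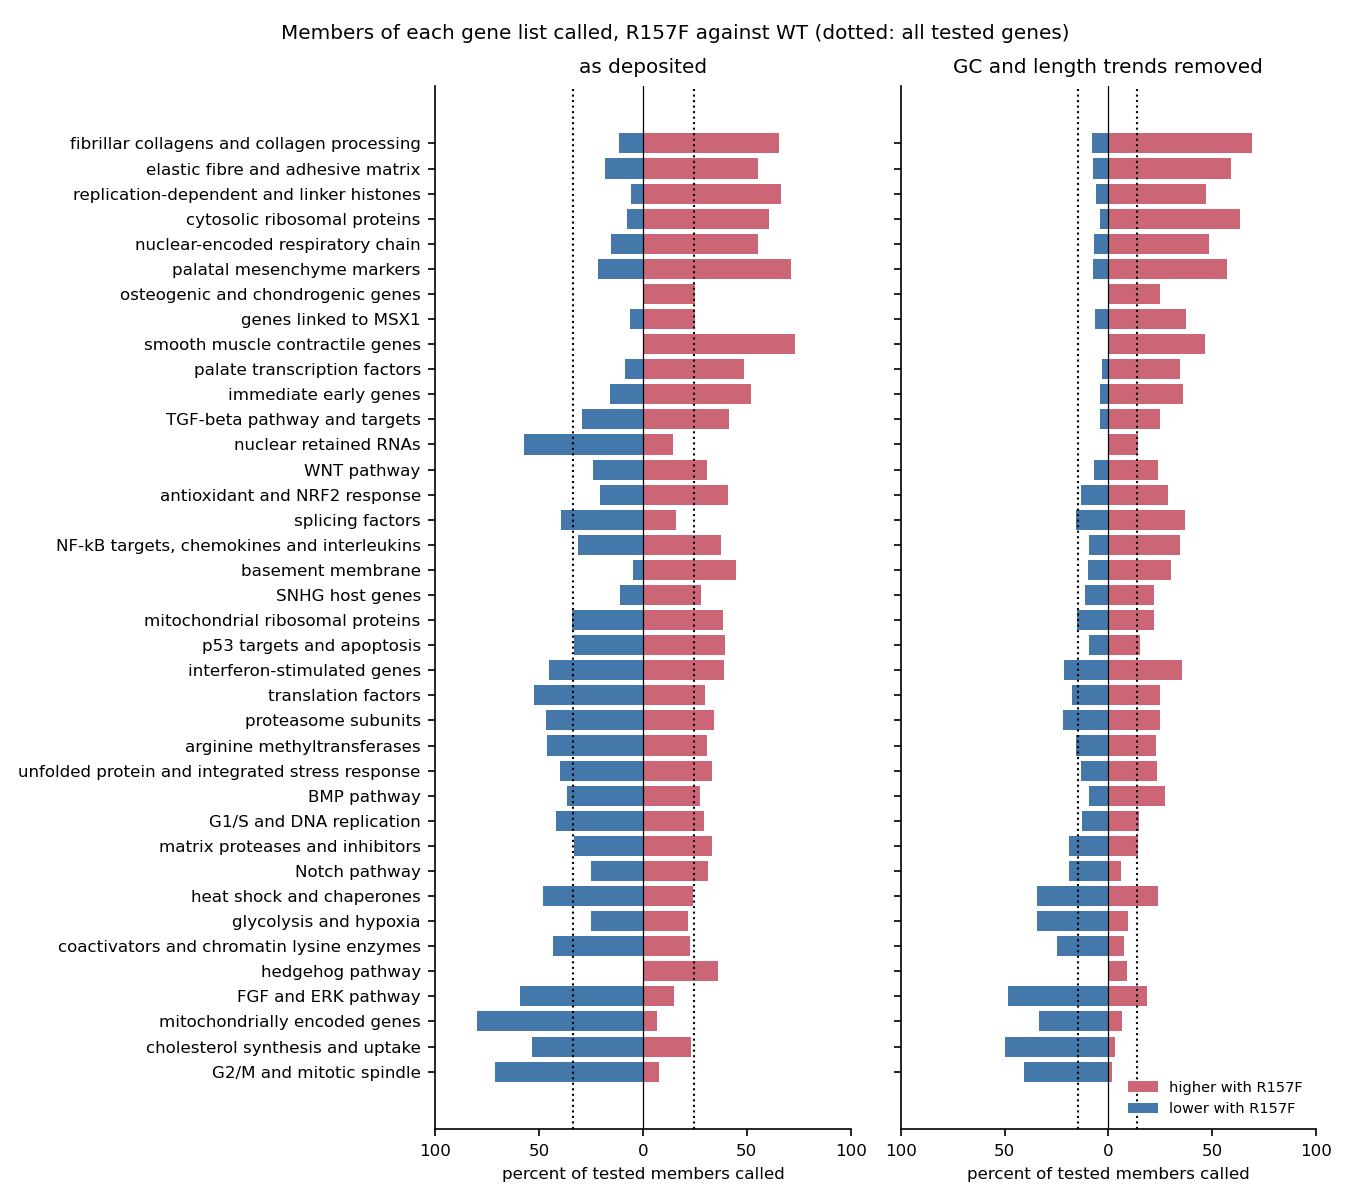
Share of each list's tested members called higher (right) or lower (left of 0) with R157F, as deposited in the left panel and with GC and length trends removed in the right panel, with dotted lines at the shares over all tested genes (24.4% and 33.8%, then 14.0% and 14.8%). Collagens, adhesive matrix and ribosomal proteins lie far to the right in both panels, and G2/M, cholesterol and FGF genes to the left in both, while splicing and translation factors change their balance.

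The cells read as mesenchyme in both groups. All 14 mesenchyme markers passed the filter, and their summed level was 21249 to 23963 TPM with WT and 26066 to 27947 TPM with R157F, 10 being called higher and 3 lower (8 and 1 with trends removed). Of 16 epithelial markers 7 passed, with a sum of 79.3 to 107 TPM over the list with WT and 132 to 137 TPM with R157F. KRT5, ESRP1 and GRHL2 were at 0 in all 6 libraries, and the keratin KRT19, a gene that mesenchyme can also express, made up the largest part of the sum at 49.9, 28.9 and 53.1 TPM with WT and 73.2, 78.5 and 82 TPM with R157F. KRT19 was not called with trends removed, at 0.13 (adjusted p = 0.324). Of the 7, 2 were called higher and 1 lower, and 0 and 1 with trends removed (0 lower with the replicate block in that fit). The gene called lower was not the same in both fits. Leaving out WT replicate 1 or 2, or R157F replicate 2 or 3, took the lower count as deposited to 0. Of 11 endothelial markers 4 passed, summing to 17.1 to 22.4 TPM with WT and 19.3 to 23.4 TPM with R157F, and CDH5 was at no more than 0.09 TPM in any of the 6 libraries. As deposited 1 of the 4 was called higher and 1 lower, and 0 and 2 with trends removed (1 lower with the replicate block in that fit). PECAM1, an adhesion molecule of endothelium, was at 8.66, 8.51 and 8.21 TPM with WT and 2.74, 3.59 and 2.16 TPM with R157F, a change of -1.32 (adjusted p = 0.000209). EGFL7 went the other way at 1.15 (adjusted p = 0.000675), but was not called with trends removed, at 0.18 (adjusted p = 0.394). Of 12 immune markers 3 passed, and CD3E and AIF1 were at 0. The sum of 244 to 502 TPM with WT and 453 to 691 TPM with R157F was nearly all CD68, a lysosomal protein that fibroblasts also make; CD74, the invariant chain, changed by 1.13 (adjusted p = 0.000227). Of 12 neural markers 1 passed, TUBB3, a tubulin, and 4 were at 0 in every library. Their sum was 114 to 193 TPM with WT and 235 to 264 TPM with R157F, and TUBB3 was higher at 0.70 (adjusted p = 0.00365) but not called with trends removed, at -0.04 (adjusted p = 0.583). Of 12 skeletal muscle markers 2 passed and 6 were at 0, with sums of 3.54 to 4.66 TPM with WT and 6.24 to 7.16 TPM with R157F. DES, the intermediate filament desmin, was higher at 0.61 (adjusted p = 0.01504) and not called with trends removed, at -0.12 (adjusted p = 0.747), nor as deposited without WT replicate 1 (adjusted p = 0.0537) or R157F replicate 2 (adjusted p = 0.0554). In bulk RNA, fewer cells of a type and less RNA per cell cannot be told apart.

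The largest changes relative to the median were drawn from protein-coding genes that averaged 5 TPM or more and whose groups did not overlap. CEBPD, a leucine zipper factor, was at 6.47, 4.27 and 6.57 TPM with WT and 25.02, 26.6 and 26.4 TPM with R157F, a change of 2.01 ± 0.17 (SE; adjusted p = 3.52e-05) and of 0.96 (adjusted p = 7.41e-05) with trends removed. The R157F libraries were nearly equal, and the lowest R157F library was 3.81-fold the highest WT library. C4orf48, which encodes a small secreted peptide, was at 9.21, 4.31 and 17.9 TPM with WT and 43.3, 56.7 and 47.01 TPM with R157F, a change of 2.30 (adjusted p = 0.000272). CITED4, a transcriptional coactivator, changed by 1.84 (adjusted p = 0.000591), ZNF628, a zinc finger factor, by 1.99 (adjusted p = 0.000335), TMEM160 by 1.88 (adjusted p = 0.000972) and the histone gene H4C15 by 1.91 (adjusted p = 0.001101). TMEM160 was not called with trends removed, at 0.67 (adjusted p = 0.0611). H4C12 was at 3.58, 0 and 1.57 TPM with WT and 8.85, 9 and 8.94 TPM with R157F. Its call (2.13 (adjusted p = 0.0474)) was lost with the replicate number as a block (adjusted p = 0.0540), and when any library but WT replicate 1 was left out (adjusted p of 0.0698 to 0.178), and it is listed at 0 in WT replicate 2. With trends removed H4C12 was at 1.29 (adjusted p = 0.281), not called. Nor was it called with median-ratio scaling (adjusted p = 0.0561), a pseudocount of 0.1 (adjusted p = 0.0893), no filter (adjusted p = 0.135) or no trend on mean expression (adjusted p = 0.0574).

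The 2 genes with the largest rises were RBM14-RBM4, at 1.6, 1.29 and 1.79 TPM with WT and 27.9, 19.4 and 25.2 TPM with R157F, and PCDHGC4, at 0.55, 0.51 and 4.68 TPM with WT and 17.8, 24.97 and 8.93 TPM with R157F. Both share exons with neighbours, the first being a read-through of RBM14 and RBM4 and the second a member of the gamma protocadherin cluster, so these values depend on how reads were split between isoforms and are uncertain. The same holds for 2 of the largest falls, the read-through genes HSPE1-MOB4, at 8.59, 22.8 and 9.19 TPM with WT and 1.25, 0.54 and 0.61 TPM with R157F, and IFNAR2-IL10RB, at -1.86 (adjusted p = 0.00128). With trends removed IFNAR2-IL10RB was at -1.35 (adjusted p = 0.0192), and at -1.10 (adjusted p = 0.0772), not called, without WT replicate 2 as well.

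Among the largest falls, SELENOT, a selenoprotein of the endoplasmic reticulum, was at 252, 359.5 and 228 TPM with WT and 66.5, 67.9 and 58.5 TPM with R157F. The groups were far apart, the highest R157F library held 29.8% of the lowest WT library, and the change was -2.08 ± 0.15 (SE; adjusted p = 2.52e-05) and -1.20 (adjusted p = 5.27e-05) with trends removed. TRAM1, which helps proteins cross that membrane, was at 554, 911 and 486 TPM with WT and 179.6, 177 and 168 TPM with R157F, a change of -1.83 (adjusted p = 0.000109). PLEKHA3, which binds a Golgi phosphoinositide, was at 32.8, 34.03 and 33.7 TPM with WT and 6.12, 10.4 and 8.07 TPM with R157F, with WT libraries nearly equal. Its change was -1.93 (adjusted p = 2.52e-05), and -1.21 (adjusted p = 0.000874) with trends removed. CISD2, an iron-sulphur protein, changed by -1.84 (adjusted p = 0.000193), SLC35A5 by -1.84 (adjusted p = 0.000106), NUDT6, encoded antisense to FGF2, by -2.13 (adjusted p = 0.000692), DBF4, the activator of the replication kinase CDC7, by -1.80 (adjusted p = 0.000542) and RPAP2, an RNA polymerase II phosphatase, by -1.78 (adjusted p = 0.000562). MMP3 and SOAT1, given above, complete this set, and all of these falls held with trends removed. NUDT6 overlaps FGF2 on the other strand, and whether the authors' counting used strand is not given in the sources used here.

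R157F was also set against the mean of the R157S and R157K groups, which asks where phenylalanine differs from serine and lysine at the same residue. Of 14718 genes, 13 were higher (0.0883%) and 5 lower (0.0340%), 18 in all, and 12 and 10 were called with trends removed. With the replicate number as a block the count was 8. It was 76 without WT replicate 2, which enters through the shared estimate of spread, 4 without R157F replicate 1 or replicate 3 and 7 without R157F replicate 2. Of the 13 higher genes, 9 were also called higher against WT. This contrast correlated less with GC content (rho of 0.45). MSX1 was at 642, 386 and 326 TPM with R157S and 563, 333 and 604 TPM with R157K, with 1 R157S library above the lowest R157F library, and its difference of 0.90 (95% interval 0.30 to 1.49; adjusted p = 0.209) was not called.

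TECPR2, a gene of autophagy, was at 14.8, 14.7 and 14.7 TPM with WT and 19.5, 23.6 and 23.5 TPM with R157F. R157S libraries were at 14.9, 15.7 and 14.8 TPM and R157K libraries at 10.5, 8.78 and 10.9 TPM, so R157F lay above all 9 other libraries. Its difference from the mean of R157S and R157K was 0.80 (95% interval 0.58 to 1.01; adjusted p = 0.00748), and its change against WT 0.56 (adjusted p = 0.00149). TECPR2 was called in both contrasts with trends removed, at 0.55 (adjusted p = 0.0263) and 0.30 (adjusted p = 0.0329). HS3ST3A1, a heparan sulphate sulphotransferase, was at 7.44, 6.92 and 7.77 TPM with WT and 16.3, 19.97 and 19.6 TPM with R157F, 11.4, 9.03 and 9.27 TPM with R157S and 10.5, 7.84 and 11.4 TPM with R157K. Again R157F was above all other libraries, with a difference of 0.86 (95% interval 0.58 to 1.13; adjusted p = 0.0273). With trends removed that difference was 0.60 (adjusted p = 0.0676) and no longer called, while its change against WT was, at 0.59 (adjusted p = 0.00607). CCDC57, a centrosomal protein, showed the same order at 6.15, 5.76 and 6.38 TPM with WT and 13.6, 10.8 and 13.6 TPM with R157F, 8.13, 7.84 and 6.84 TPM with R157S and 6.63, 7.92 and 8.1 TPM with R157K, a difference of 0.67 (95% interval 0.42 to 0.91; adjusted p = 0.0485). CCDC57 lost both calls with trends removed, at 0.43 (adjusted p = 0.222) in this contrast and 0.45 (adjusted p = 0.0535) against WT.

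CDYL, a chromodomain repressor, and GRIP2, a synaptic scaffold protein, were also called in both contrasts. CDYL was at 17.98, 21.7 and 18.2 TPM with R157F, 15.5, 13.96 and 10.4 TPM with R157S and 8.11, 7.19 and 9.68 TPM with R157K, and GRIP2 at 8.08, 8.93 and 10.3, 5.14, 6.55 and 6.53 and 3.06, 1.97 and 2.48 TPM. In both, R157F lay above and R157K below all other libraries, and the calls against WT (0.48 (adjusted p = 0.01903) and 0.44 (adjusted p = 0.0256)) were lost with trends removed and when single libraries were left out. For CDYL the adjusted p against WT was 0.0582 without WT replicate 1 and 0.0791 without R157F replicate 2. With trends removed, the difference from the mean of R157S and R157K was 0.66 (adjusted p = 0.0635) for CDYL, not called, and 0.74 (adjusted p = 0.0268) for GRIP2. For GRIP2 the adjusted p against WT was 0.0721 without WT replicate 2, 0.0557 without R157F replicate 2 and 0.102 without R157F replicate 3.

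3 more genes with a symbol that were called in this contrast but, as deposited, not against WT, outside the rule for named genes and added after their values were seen, differed through R157K. SPARC was at 2673, 2817 and 2737 TPM with WT and 3237, 3281 and 2945 TPM with R157F, 3329.9, 4178 and 4081 TPM with R157S and 1242, 1111 and 1073 TPM with R157K. H3-3B, which encodes histone H3.3, was at 1450.0, 1431 and 1388 TPM with R157F, 1267, 1274 and 1228 with R157S and 745, 618 and 749 with R157K. RPL23A was at 336, 360.4 and 349.7, 353, 399 and 367 and 634, 826 and 683 TPM, in the order R157F, R157S and R157K. In SPARC the R157S libraries were all above R157F and in H3-3B all below it, by less than the distance of R157K, and RPL23A with R157S overlapped R157F. With trends removed SPARC and H3-3B were called higher against WT, at 0.46 (adjusted p = 0.00363) and 0.65 (adjusted p = 0.00224), and RPL23A was not, at -0.07 (adjusted p = 0.558). In that fit the difference from R157S and R157K was 0.50 (adjusted p = 0.0331) for SPARC and -0.56 (adjusted p = 0.01203) for RPL23A, both still called, and 0.59 (adjusted p = 0.0534) for H3-3B, which was not. Median-ratio scaling also gave calls against WT for SPARC (adjusted p = 0.0290) and H3-3B (adjusted p = 0.0194). The R157S and R157K groups thus do not form a uniform set, and a difference from their mean need not be a difference from each. 2 more genes with a symbol, also called higher against WT, were of other kinds and were likewise added after their values were seen. TRIM8-DT, a noncoding RNA divergent from TRIM8, was at 0, 0.4 and 0 TPM with WT and 6.77, 11.4 and 9.36 TPM with R157F, 0.72, 0 and 0.02 TPM with R157S and 12.6, 15.2 and 12.7 TPM with R157K, so it was high with R157F and higher with R157K. DUX4L50, a pseudogene with many near copies whose reads cannot be placed with certainty, was at 2.88, 2.53 and 2.99 TPM with R157F and between 0.140 and 1.30 TPM in the R157S and R157K libraries. With trends removed, neither TRIM8-DT at 1.07 (adjusted p = 0.149) nor DUX4L50 at 1.04 (adjusted p = 0.0832) was called in this contrast.

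**Figure D4:**
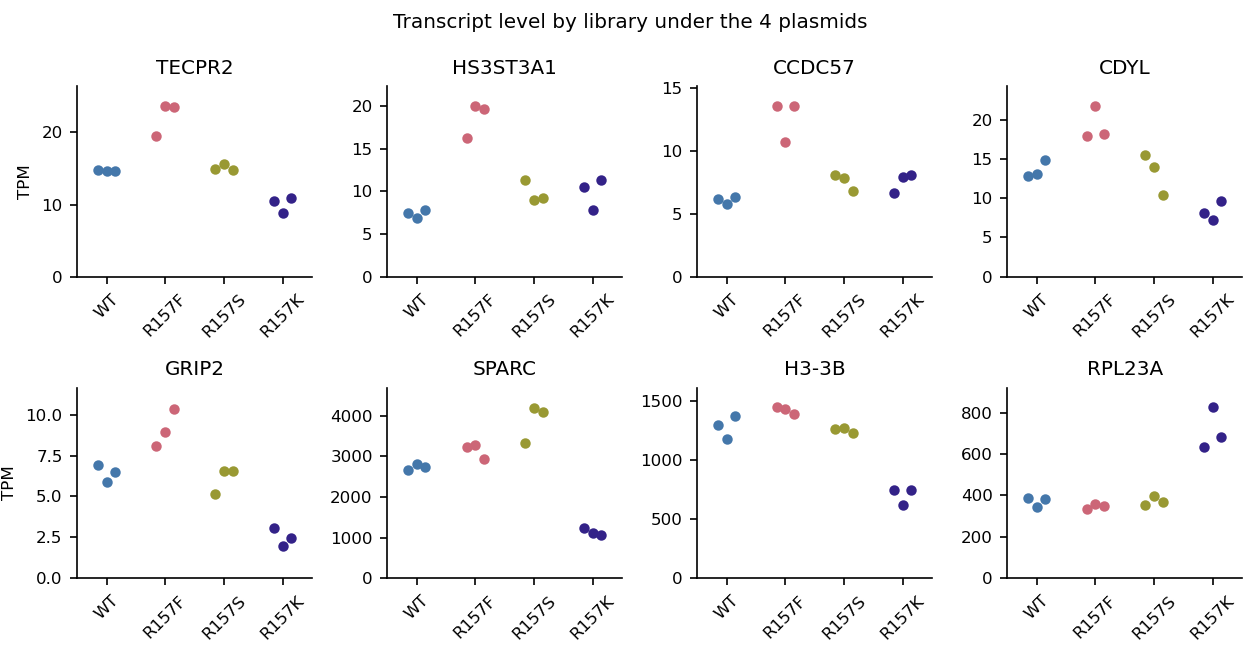
TPM of 8 genes called in R157F against the mean of R157S and R157K, in each of the 3 libraries of the 4 plasmids (points), on linear axes from 0. R157F lies above every other library for TECPR2, HS3ST3A1, CCDC57, CDYL and GRIP2, while SPARC, H3-3B and RPL23A differ mainly through R157K.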

How the data were processed

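The authors deposited 1 table of TPM, a length-corrected transcript abundance, per gene for 12 poly(A) RNA libraries, prepared, per the labels' protocols, by an Illumina stranded mRNA method. The submitters' processing notes name RSEM; its version, the aligner, the build and the gene annotation used were not given in the sources used here. TPM keep no depth, so no counting interval or count model was used, although a count test had been foreseen had counts been given. Values were taken as log2(TPM + 1) for 14718 genes with at least 1 TPM in 3 or more of 12 libraries. limma 3.58.1 in R 4.3.3 was fitted to all 12 libraries with 1 coefficient per plasmid, so that the groups share 1 estimate of spread, with a trend on mean expression and Benjamini-Hochberg adjustment over all tested genes; the fit was tested on simulated data. Trends on transcript GC content and log length (GENCODE 29 on GRCh38, not known to be the one the authors used; 96.6% of tested genes matched) were subtracted per library with splines of 5 degrees of freedom. The labels give replicate numbers under a batch tag. Deviations of same-numbered WT and R157F libraries from their group means correlated at 0.02, -0.08 and 0.03 over genes. For WT and R157K they correlated at 0.14, 0.39 and 0.09, and for the other pairs of groups at -0.13 to 0.07. The values for WT and R157K were all above 0 and above every value of the other pairs. Whether the number marks a shared batch was not tested. What the tag marks is not stated, and fits with the number as a block are given where they change a call.

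The members and lists were chosen with earlier results of these data known. Named by rule were MSX1, PRMT1, the 12 largest rises and falls (protein-coding, mean of at least 5 TPM over the 6 libraries, no overlap), up to 4 called members of each list in its majority direction and 2 in the other, and up to 6 genes in each direction that differ most from R157S and R157K. From the 243 genes this rule picks, those in the text were chosen after their values were seen: 24 of the 243, of which 2 are named (DES and TUBB3), changed sign with trends removed, and 156 were still called the same way. Of the 170 picked genes that are named, 142 were still called the same way, so the named genes held more often than those the rule picks. Motifs were searched in RefSeq windows on both strands, TATA on the gene's strand. MSX homeodomain cores (TAATTG) were in 4.21% of all windows, 2.73% of those called higher and 4.84% of those called lower. With trends removed the order turned over, at 4.79% of those called higher and 3.73% of those called lower. No table of proteins was used here, and some genes that the rule picks are not reported here. Alternatives were the replicate block, scaling, pseudocount, filters, moderation, the 6 libraries alone and leaving out each library.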

Additional observations from a re-analysis of the deposited data

How the results depend on the processing

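The count of genes called in R157F against WT was 4093 with GC and length trends removed (1995 higher, 2098 lower), 3896 with the replicate block as well (1926 and 1970), and 2888 without WT replicate 2 as well (1426 and 1462); the other alternatives left it within 1.5 times. The replicate block alone gave 8481 calls and changed, as deposited, no named gene's call but that of H4C12. MSX1 gave 0.70 (adjusted p = 0.122) and PRMT1 0.16 (adjusted p = 0.0555) with trends removed and without WT replicate 2, and both were called under every other alternative run. The contrast with R157S and R157K was unstable. It gave 5 calls (4 higher, 1 lower) with no filter, 8 (6 and 2) with the replicate block, 74 (38 and 36) with trends removed and without WT replicate 2, and 4 to 76 (3 to 52 higher, 1 to 24 lower) leaving out 1 library. Its lower calls were 9 with median-ratio scaling, 3 at a filter of 5 TPM, 3 with no trend on mean expression, 10 with GC and length trends removed and 9 with those and the block. The cause was not tested. Of 86 counts over gene lists, 41 were lower and 3 higher by over 1.5 times with trends removed. With trends removed, DES changed sign to -0.12, also with the block, as did TUBB3 to -0.044, with the block too, and to -0.066 without WT replicate 2, none of them called. In that fit 4 named genes lost the call under the block (BAD, DLGAP5, DLX2 and NOG) and 17 without WT replicate 2; list counts moved by over 1.5 times in 8 and 21 of 86 cases. Without depth, low genes cannot be given a counting error, and 3 libraries a group limit every test.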
